A study of Rattus norvegicus with 12 samples.

Results

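RNA was compared between 3 libraries of double Btg1 and Btg2 knockdown and 3 libraries of scramble control, 6 of the 12 libraries of the series, and all 12535 genes that passed a filter on low counts were tested. The cells were primary cultures from the heart ventricles of newborn (P0) wildtype Sprague-Dawley rats, enriched for cardiomyocytes by removing fibroblasts. All cultures were lipofected with 20 nM of small interfering RNA (siRNA) in total and collected 48 h later. Control cultures received 20 nM of scrambled siRNA, and double knockdown cultures received 10 nM of Btg1 siRNA with 10 nM of Btg2 siRNA and no scramble. The cultures treated for 1 gene only, used here beside the double knockdown, received 10 nM of its siRNA with 10 nM of scramble. Each of the 4 groups had 3 libraries. The labels name 1 commercial siRNA reagent per target and no second siRNA or rescue, so loss of the transcript and an effect of the siRNA sequence itself cannot be told apart. Whether a group's libraries stem from different cultures or animals is not stated, so each p-value reflects the spread between these libraries alone, and that spread may be technical.

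BTG1 and BTG2 are small proteins of the BTG/TOB family, whose shared domain binds the deadenylases of the CCR4-NOT complex and promotes shortening of the poly(A) tail of mRNA. Both were first described as inhibitors of proliferation, and Btg2 is an immediate early gene and a target of p53. Neonatal ventricular cardiomyocytes are leaving the cell cycle and replacing fetal with adult sarcomere proteins.

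Total counts lay between 33248851 and 40205757 in the 6 libraries. The 3 double knockdown libraries differed more among themselves than the scramble libraries did: chi-square per degree of freedom between pairs was 4.18 to 4.98 in scramble and 13.4 to 27.0 in the double knockdown. The ribosomal RNA gene Rn28s stood at 3957, 3972 and 3939.6 TPM (a transcript level scaled for gene length and library total) in scramble and 2476, 3718 and 4465 TPM in double knockdown replicates 1 to 3. Shorter genes were called higher less often than longer ones, with length estimated from the ratio of scaled counts to TPM. Of 5 length classes, the shortest had 11% higher and 21.6% lower, and the longest 28.5% higher and 20.7% lower. The median change of the shortest class was -0.09, -0.04 and -0.02 in double knockdown replicates 1 to 3 on the log2 scale, relative to the mean of scramble. The scramble replicates, each set against the mean of the other scramble libraries, lay at 0.0041, 0.0231 and -0.0305. The part of amplification, RNA quality or gene length in the results was not tested. Cardiomyocyte transcripts led the libraries: the troponin T gene Tnnt2 was at 7225, 6837 and 7235 TPM in scramble, and the ventricular light chain gene Myl2 was at 6545, 6799 and 6509 TPM.

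Of the 12535 genes, 4873 (38.9%) differed between the double knockdown and scramble at an adjusted p below 0.05 by the quasi-likelihood test of edgeR, adjusted by Benjamini-Hochberg, the threshold behind every call below. Of these, 2429 (19.4%) were higher and 2444 (19.5%) lower. The 3 libraries of each group did not overlap for 23.0% of genes in the higher and 23.7% in the lower direction. Most changes were small, with a median log2 change of 0.27 among the genes called higher, -0.31 among those called lower and -0.0061 among all. At least 1.5-fold change was reached by 350 genes upward (2.79%) and 401 downward (3.20%), and at least 2-fold by 109 (0.870%) and 93 (0.742%). Of the 2-fold changes, 84 of the 109 rises and 64 of the 93 falls were in genes under 5 CPM (read counts scaled to the library total), so that 25 rises and 29 falls remained from 5 CPM up. The share of genes called rose with level, from 9.24% under 1 CPM to 54.9% at 100 CPM and over.

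**Figure D1:**
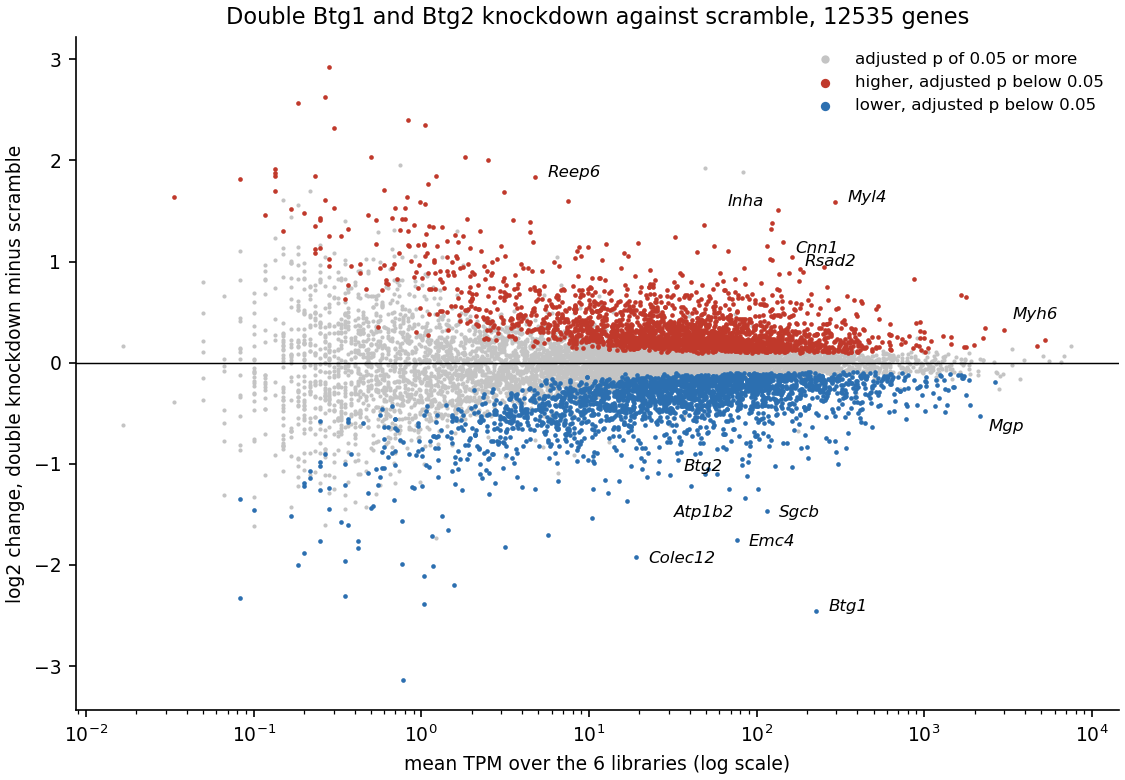
Change against level for the 12535 tested genes: the x axis is the mean TPM over the 6 libraries on a log scale, the y axis the log2 change of the double knockdown against scramble, and each point is a gene, coloured where edgeR's adjusted p was below 0.05 (genes listed at 0 TPM are left out). Among called genes above 10 TPM, Btg1 at -2.45 and Colec12 at -1.92 lie lowest and Myl4 at 1.59 and Inha at 1.51 highest.

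Both targets were lower with the siRNA pair. Btg1 was at 383, 379 and 385 TPM in scramble and 70.0, 74.2 and 67.1 TPM in the double knockdown, and Btg2 was at 109, 103 and 114 TPM in scramble and 55.5, 53.5 and 53.9 TPM in the double knockdown. The groups did not overlap for either gene. Btg1 fell by 2.45 ± 0.05 on the log2 scale (SE, edgeR adjusted p = 3.0e-21) and Btg2 by 1.01 ± 0.04 (edgeR adjusted p = 3.5e-14), which left 18.3% of the scramble level of Btg1 and 49.6% of that of Btg2. With the pair both transcripts were lower than with the matching siRNA alone, with differences of -0.36 ± 0.05 for Btg1 against the Btg1 knockdown (edgeR adjusted p = 5.6e-06) and -0.31 ± 0.04 for Btg2 against the Btg2 knockdown (edgeR adjusted p = 6.3e-06). Comparisons of the double with a single knockdown therefore also compare different depths of knockdown.

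The relatives of the pair changed little. Of 5 tested members of the BTG/TOB family 1 rose and 2, the targets, fell. Btg3 rose from 71.2, 67.3 and 69.7 TPM to 82.9, 86.4 and 72.7 TPM, by 0.20 ± 0.06 (edgeR adjusted p = 0.0072), a call that ended without double knockdown replicate 2 (edgeR adjusted p = 0.054). Tob1 and Tob2, whose products also bind CCR4-NOT, did not pass, with log2 changes of -0.10 ± 0.05 (edgeR adjusted p = 0.083; edgeR adjusted p = 0.04 without double knockdown replicate 1) and 0.01 ± 0.07 (edgeR adjusted p = 0.92).

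Genes of the mRNA decay machinery that BTG proteins recruit moved modestly. Of 41 tested, 12 rose and 7 fell (19.4% and 19.5% of all genes), and 7 rose when double knockdown replicate 2 was left out. Cnot1, the scaffold of the CCR4-NOT complex, was at 48.3, 48.2 and 49.8 TPM in scramble and 58.7, 55.4 and 56.7 TPM in the double knockdown. It rose by 0.21 ± 0.04 (edgeR adjusted p = 6.7e-05). Dcp1a, a decapping cofactor, was at 12.2, 13 and 12.4 TPM in scramble and 18.1, 17.5 and 18.2 TPM in the double knockdown. It rose by 0.50 ± 0.07 (edgeR adjusted p = 8.5e-06). Patl1, which links deadenylation to decapping, rose by 0.35 ± 0.05 (edgeR adjusted p = 6.7e-06). In all 3 the double knockdown libraries lay above the scramble libraries. Pabpc1, the cytoplasmic poly(A)-binding protein that coats the tails CCR4-NOT removes, went the other way. It was at 709, 726 and 719 TPM in scramble and 527, 495 and 527 TPM in the double knockdown, with no overlap. It fell by 0.49 ± 0.04 (edgeR adjusted p = 1.1e-09). The change from scramble was -0.49 ± 0.04 with the Btg2 siRNA alone (edgeR adjusted p = 2.9e-09) and -0.06 ± 0.04 with the Btg1 siRNA alone (edgeR adjusted p = 0.27), and the double knockdown differed from the Btg1 knockdown by -0.43 ± 0.04 (edgeR adjusted p = 5.7e-08).

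Most interferon-stimulated genes rose. These genes encode antiviral proteins and are switched on by STAT and IRF factors through a short promoter element, the interferon-stimulated response element (ISRE). Of 57 tested, 45 rose and 6 fell, with a median log2 change of 0.32, against 19.4%, 19.5% and -0.0061 among all genes, and 3 fell when scramble replicate 1 was left out. The windows printed here show the element in 4 genes that rose and 1 that fell, from the RefSeq promoter table of the rat assembly GRCr8 (250 bases before to 50 after each gene's start), with the match to GAAA, any 2 bases and GAAA, or to its reverse complement, in capitals, 5′ to 3′ on the gene's strand. Igtp, Oasl2 and Ifitm2 were chosen after their values were seen.
Rsad2, chr6:48788238-48788287, minus strand: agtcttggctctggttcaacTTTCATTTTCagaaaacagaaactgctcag
Igtp, chr10:42874924-42874973, plus strand: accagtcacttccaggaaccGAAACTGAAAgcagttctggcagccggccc
Oasl2, chr12:47383307-47383356, minus strand: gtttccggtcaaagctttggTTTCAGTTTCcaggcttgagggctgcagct
Cxcl10, chr14:15988816-15988852, plus strand: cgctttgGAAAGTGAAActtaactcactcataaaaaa
Ifitm2, chr1:205482352-205482401, minus strand: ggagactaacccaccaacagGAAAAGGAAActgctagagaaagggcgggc

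The same pattern of 10 bases, searched on both strands, lay in the promoter of 29 of the 45 interferon-stimulated genes with a promoter in the table (64.4%), against 310 of 10069 tested genes with one (3.08%) and 1131 of all 27457 RefSeq genes with one (4.12%). Members that rose held it in 23 of 38 cases, members that fell in 2 of 3 and members not called in 4 of 4, so its presence did not separate the members by direction. A match describes the letters only, not a bound site.

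The rises of these genes were moderate and close between libraries. Rsad2, which encodes the antiviral enzyme viperin, was at 106, 104 and 109 TPM in scramble and 225, 233 and 202 TPM in the double knockdown. Every double knockdown library lay far above every scramble library, and the log2 change was 1.04 ± 0.06 (edgeR adjusted p = 7.4e-10). Ifi47, an interferon-induced GTPase, was at 41.3, 43.1 and 42.7 TPM in scramble and 91.8, 95.3 and 89.1 TPM in the double knockdown, a change of 1.11 ± 0.07 (edgeR adjusted p = 4.1e-10). The chemokine gene Cxcl10 was at 426, 424 and 430.4 TPM in scramble and 674, 626 and 604 TPM in the double knockdown, a change of 0.56 ± 0.05 (edgeR adjusted p = 1.2e-09). The groups stood apart in both. Ddx58, which encodes the RNA sensor RIG-I, rose by 0.55 ± 0.04 (edgeR adjusted p = 2.4e-10), Ifi35 by 0.61 ± 0.05 (edgeR adjusted p = 4.4e-10) and the GTPase gene Irgm by 0.67 ± 0.06 (edgeR adjusted p = 2.3e-09). Of the genes with a printed window, Igtp, another such GTPase, rose by 0.68 ± 0.06 (edgeR adjusted p = 4.0e-09) and Oasl2, related to the RNA-sensing oligoadenylate synthetases, by 0.50 ± 0.05 (edgeR adjusted p = 2.8e-08). Ifitm2, a membrane protein that limits virus entry, was at 434, 446 and 435 TPM in scramble and 359, 326 and 362 TPM in the double knockdown. It fell by 0.34 ± 0.04 (edgeR adjusted p = 8.7e-07).

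In these genes the double knockdown stood near the Btg1 knockdown and above the Btg2 knockdown. Against the Btg2 knockdown 46 of the 57 were higher and 2 lower (15.2% and 17.0% of all genes; 47.3% of the calls in that comparison were upward, and 58.2% with scaling by library size alone). Against the Btg1 knockdown 3 were higher and 10 lower (10.3% and 11.9%), and without Btg1 knockdown replicate 1 or 2 these were 5 and 6. The number higher was 1 without double knockdown replicate 1 or Btg1 knockdown replicate 3 and 5 without double knockdown replicate 3. The 2 genes lower than the Btg2 knockdown became 1 without any of the double knockdown libraries or Btg2 knockdown replicate 2 or 3. For Rsad2 the difference from the Btg1 knockdown was -0.03 ± 0.06 (edgeR adjusted p = 0.8) and from the Btg2 knockdown 0.73 ± 0.06 (edgeR adjusted p = 8.4e-08). For Cxcl10 these were -0.06 ± 0.04 (edgeR adjusted p = 0.41) and 0.46 ± 0.05 (edgeR adjusted p = 3.8e-08). A p above the threshold does not show that the double and the Btg1 knockdown were equal.

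Genes that prepare peptides for MHC class I rose in part, against 19.4% higher and 19.5% lower among all genes. Many of these MHC class I genes are also induced by interferon. Of 27 tested, 12 rose and 2 fell, with 1 falling when scramble replicate 1 was left out, or replicate 2 or 3 of the double knockdown, and 4 without its replicate 1, and the median change was 0.05. Psmb8, a catalytic subunit of the immunoproteasome, was at 105, 108 and 96.5 TPM in scramble and 179, 164 and 169 TPM in the double knockdown. It rose by 0.72 ± 0.06 (edgeR adjusted p = 3.6e-09). Tapbpl, a peptide-loading chaperone, was at 61.3, 59.4 and 59.7 TPM in scramble and 97.5, 94.9 and 91.7 TPM in the double knockdown. It rose by 0.64 ± 0.04 (edgeR adjusted p = 1.1e-10). Tapbpl was above its level in either single knockdown, by 0.30 ± 0.04 against Btg1 (edgeR adjusted p = 2.9e-05) and 0.68 ± 0.05 against Btg2 (edgeR adjusted p = 8.3e-11). Psmb10, another immunoproteasome subunit, behaved the same way: it rose by 0.45 ± 0.06 (edgeR adjusted p = 1.8e-06) and exceeded the Btg1 knockdown by 0.33 ± 0.06 (edgeR adjusted p = 2.6e-04) and the Btg2 knockdown by 0.40 ± 0.06 (edgeR adjusted p = 1.5e-05). Calr, the calcium-binding chaperone calreticulin, fell by 0.49 ± 0.04 (edgeR adjusted p = 1.8e-09).

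Genes of cell division moved down. Of 62 tested genes of G2/M and mitosis, 3 rose and 29 fell, with a median change of -0.29, and of 42 genes of DNA replication and S phase, 1 rose and 21 fell, with a median of -0.20. Among all tested genes 19.4% were higher and 19.5% lower. The mitotic count rested partly on single libraries: 17 fell without scramble replicate 3 and 19 without double knockdown replicate 1. These transcripts were scarce, and their summed level over the mitotic list was 728 to 866 TPM in scramble, highest in replicate 3, and 634 to 700 TPM in the double knockdown.

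Kif23, a kinesin of the central spindle that cytokinesis needs, was at 8.9, 9.0 and 10.9 TPM in scramble and 5.0, 5.4 and 5.3 TPM in the double knockdown. The groups did not overlap, and it fell by 0.88 ± 0.11 (edgeR adjusted p = 6.2e-07). Cdc20, the activator of the anaphase-promoting complex, was at 28.8, 30.5 and 34.7 TPM in scramble and 21.2, 21 and 23 TPM in the double knockdown. It fell by 0.54 ± 0.07 (edgeR adjusted p = 4.1e-06). Aurkb, the kinase of the chromosomal passenger complex, fell by 0.70 ± 0.11 (edgeR adjusted p = 2.1e-05), the checkpoint gene Bub1b by 0.78 ± 0.13 (edgeR adjusted p = 6.8e-05) and Cdca3 by 0.72 ± 0.12 (edgeR adjusted p = 8.4e-05). Cenpf, a kinetochore protein, was an exception at 3.2, 3.2 and 3.6 TPM in scramble and 4.6, 4.9 and 4.4 TPM in the double knockdown. It rose by 0.46 ± 0.07 (edgeR adjusted p = 2.7e-05). Among replication genes, Mcm7 of the replicative helicase was at 41.3, 42.1 and 43.1 TPM in scramble and 32.4, 31.8 and 33.1 TPM in the double knockdown. It fell by 0.39 ± 0.05 (edgeR adjusted p = 4.6e-06). Cdt1, which loads that helicase, was at 8.9, 10.2 and 11.1 TPM in scramble and 6.1, 6.3 and 6.5 TPM in the double knockdown. It fell by 0.69 ± 0.11 (edgeR adjusted p = 1.6e-05), and Rfc5 of the clamp loader fell by 0.48 ± 0.08 (edgeR adjusted p = 5.4e-05). The double knockdown libraries lay below the scramble libraries in all 3.

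Here the double knockdown stood apart from the Btg1 knockdown rather than the Btg2 knockdown. It was lower than the Btg1 knockdown in 53 of the 62 mitotic genes and higher in 0, and lower in 30 of the 42 replication genes and higher in 0, against 11.9% lower and 10.3% higher among all genes. Leaving out any 1 library left 51 to 54 and 24 to 30 lower, and 1 replication gene was higher without double knockdown replicate 3. Against the Btg2 knockdown 5 mitotic genes were higher and 1 lower (3 and 2 without double knockdown replicate 2, and 3 higher without Btg2 knockdown replicate 1). In that comparison 3 replication genes were higher and 3 lower, with 5 higher without double knockdown replicate 1, 0 without its replicate 2, and 1 and 0 without Btg2 knockdown replicates 1 and 3. Cdt1 differed from the Btg1 knockdown by -0.88 ± 0.10 (edgeR adjusted p = 2.3e-06) and from the Btg2 knockdown by 0.04 ± 0.11 (edgeR adjusted p = 0.82). Kif23 differed from both, by -0.79 ± 0.11 (edgeR adjusted p = 1.1e-05) and -0.52 ± 0.11 (edgeR adjusted p = 7.3e-04). The comparisons of the double and single knockdowns with scramble share its 3 libraries, so their values are given side by side only: the median change of the mitotic list against scramble was 0.31 with Btg1 siRNA, -0.30 with Btg2 siRNA and -0.29 with both.

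Of the D-type cyclins, which drive entry into S phase, Ccnd2 and Ccnd3 were lower as well. Of 25 cyclins, kinases, inhibitors and pocket proteins tested, 3 rose and 12 fell (19.4% and 19.5% of all genes), with 6 falling without scramble replicate 2. Ccnd3 was at 253, 266 and 251 TPM in scramble and 143, 142 and 151 TPM in the double knockdown. It fell by 0.84 ± 0.04 (edgeR adjusted p = 6.8e-13). Ccnd2 was at 146, 147 and 143 TPM in scramble and 124, 111 and 107 TPM in the double knockdown. It fell by 0.36 ± 0.05 (edgeR adjusted p = 1.8e-06). The groups did not overlap for either gene. Ccnd2 was higher than scramble with each siRNA alone, by 0.20 ± 0.05 with Btg1 (edgeR adjusted p = 0.0013) and 0.13 ± 0.05 with Btg2 (edgeR adjusted p = 0.043), and lower than either with the pair, with differences of -0.57 ± 0.05 (edgeR adjusted p = 1.5e-08) and -0.49 ± 0.05 (edgeR adjusted p = 3.1e-08). Cdkn1c, the imprinted inhibitor p57, was at 8.9, 8.9 and 8.6 TPM in scramble and 13.5, 13.3 and 13.3 TPM in the double knockdown. It rose by 0.59 ± 0.06 (edgeR adjusted p = 9.0e-08).

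**Figure D2:**
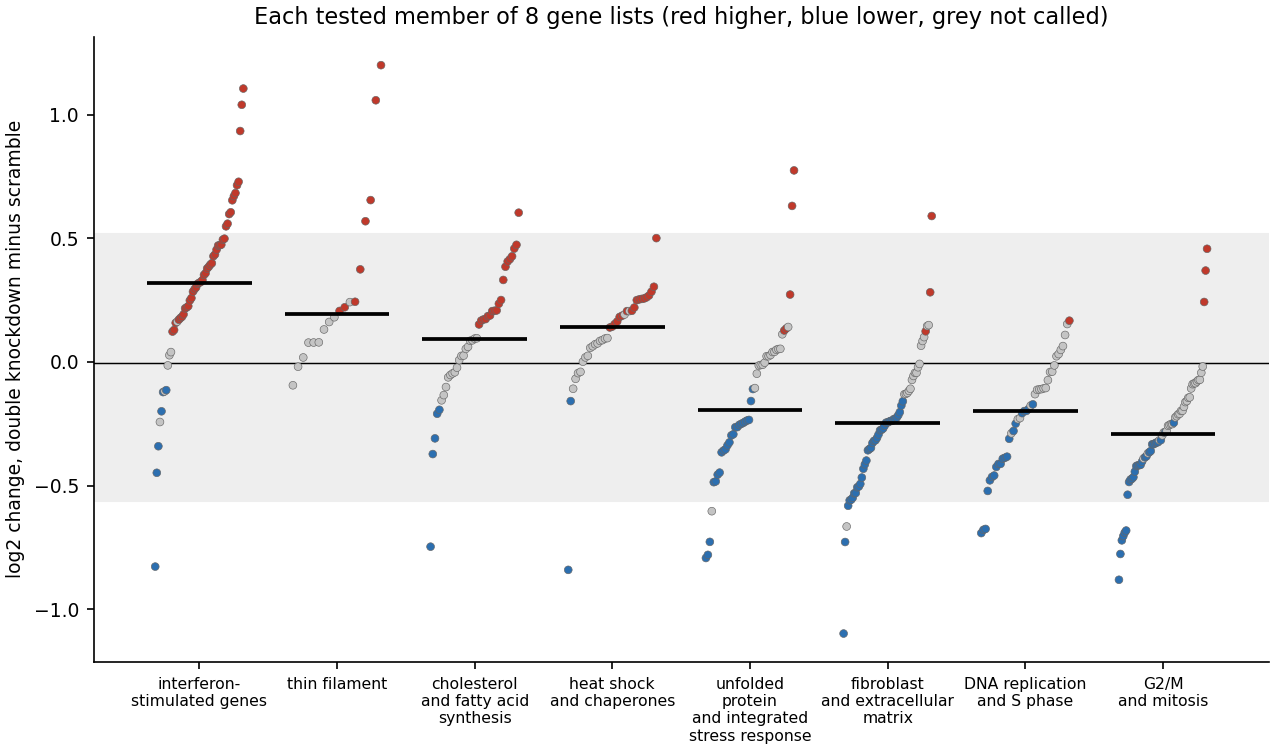
Log2 change of the double knockdown against scramble (y axis) for each tested member of 8 gene lists (points, sorted within a list), with a black bar at the list's median and a grey band from the 5th to the 95th percentile of all tested genes (-0.563 to 0.517). The interferon median lies at 0.32 and the mitotic median at -0.29, and most members of every list stay inside the band.

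The genes described next come from the 20 largest rises among called genes with at least 5 CPM and no overlap between the groups. Larger fitted changes, in both directions, were found in genes below that level. Reep6, an ER-shaping protein, was at 1.9, 2.4 and 1.9 TPM in scramble and 8.3, 6.2 and 7.9 TPM in the double knockdown. It rose by 1.83 ± 0.16 (edgeR adjusted p = 3.7e-09), and the keratin gene Krt80 rose by 1.60 ± 0.14 (edgeR adjusted p = 2.6e-09). Inha, the inhibin alpha subunit, was at 67.5, 67.3 and 72.6 TPM in scramble and 196, 198 and 201 TPM in the double knockdown. The 3 libraries of each group were tightly grouped and far apart, and the change was 1.51 ± 0.04 (edgeR adjusted p = 2.8e-17). The imprinted noncoding RNA gene H19 was at 28.4, 29.8 and 23.2 TPM in scramble and 75.5, 71.1 and 64.5 TPM in the double knockdown. It rose by 1.36 ± 0.12 (edgeR adjusted p = 5.9e-06). Lmcd1, a cofactor of calcineurin signalling in muscle, was at 69.9, 70.5 and 67.9 TPM in scramble and 197, 153 and 175 TPM in the double knockdown. It rose by 1.32 ± 0.13 (edgeR adjusted p = 3.1e-05). Snap91, a clathrin assembly protein, was at 13.6, 21.7 and 22.5 TPM in scramble and 42.5, 48.3 and 47.3 TPM in the double knockdown. It rose by 1.24 ± 0.16 (edgeR adjusted p = 2.3e-04), with scramble replicate 1 below the other two. Fgf23, a hormone of phosphate balance, was at 33.6, 34.9 and 34.7 TPM in scramble and 79.2, 69.2 and 83.5 TPM in the double knockdown. It rose by 1.16 ± 0.09 (edgeR adjusted p = 1.0e-09). Klhdc8b was at 68.4, 73.1 and 71.6 TPM in scramble and 159, 158 and 160.4 TPM in the double knockdown. It rose by 1.15 ± 0.04 (edgeR adjusted p = 1.2e-15), and Plppr5, a membrane protein of neurite growth, rose by 1.10 ± 0.07 (edgeR adjusted p = 4.1e-10). Among genes of low level, the small GTPase genes Rasl10b and Rab6b rose by 1.14 ± 0.11 (edgeR adjusted p = 1.4e-08) and 1.10 ± 0.11 (edgeR adjusted p = 6.4e-07), and the lysosomal peptide transporter gene Abcb9 by 1.06 ± 0.09 (edgeR adjusted p = 2.7e-09). Cnn1, a smooth muscle protein that binds actin, rose by 1.19 ± 0.07 (edgeR adjusted p = 3.7e-09). The 12 smooth muscle and pericyte markers summed to 2879 to 3109 TPM in scramble and 3169 to 3405 TPM in the double knockdown, and the part of these cells in that rise was not tested.

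For 5 of these genes the pair gave more than either siRNA alone. Rac2, a small GTPase of the cytoskeleton, was at 12, 12.6 and 11.3 TPM in scramble and 26.5, 27.6 and 28.3 TPM in the double knockdown, a rise of 1.19 ± 0.08 (edgeR adjusted p = 1.4e-10). With Btg1 siRNA alone the change from scramble was 0.71 ± 0.09 and with Btg2 siRNA alone 0.61 ± 0.09. The double knockdown exceeded them by 0.48 ± 0.08 (edgeR adjusted p = 1.1e-04) and 0.58 ± 0.08 (edgeR adjusted p = 6.7e-06). Fbxo33, a subunit of a ubiquitin ligase, was at 11.2, 11 and 11.1 TPM in scramble and 24.2, 23 and 22.7 TPM in the double knockdown, a rise of 1.05 ± 0.06 (edgeR adjusted p = 1.2e-12). It exceeded the single knockdowns by 0.39 ± 0.05 (edgeR adjusted p = 1.1e-05) and 0.43 ± 0.05 (edgeR adjusted p = 1.7e-06). Sdsl, an enzyme related to serine dehydratase, rose by 1.08 ± 0.09 (edgeR adjusted p = 2.7e-09) and exceeded the Btg1 knockdown by 0.62 ± 0.09 (edgeR adjusted p = 2.1e-05) and the Btg2 knockdown by 0.64 ± 0.09 (edgeR adjusted p = 6.2e-06). Inha exceeded the Btg1 knockdown by 0.39 ± 0.04 (edgeR adjusted p = 6.4e-07) and the Btg2 knockdown by 0.95 ± 0.04 (edgeR adjusted p = 1.3e-13), and Klhdc8b did so by 0.27 ± 0.04 (edgeR adjusted p = 3.4e-05) and 0.75 ± 0.04 (edgeR adjusted p = 3.3e-12). These calls held when any 1 library was left out. By contrast, Snap91 was lower with the pair than with Btg1 siRNA alone, with a difference of -0.68 ± 0.15 (edgeR adjusted p = 0.011). Abcb9 was lower too, at -0.31 ± 0.08 (edgeR adjusted p = 0.0094; edgeR adjusted p = 0.06 without double knockdown replicate 1). Cnn1 was lower at -0.26 ± 0.07 (edgeR adjusted p = 0.016), a call that ended without double knockdown replicate 1 or 3 or Btg1 knockdown replicate 3 (edgeR adjusted p = 0.059, 0.069 and 0.057). Other genes were near the level of 1 single knockdown: Myl4 differed from the Btg1 knockdown by -0.02 ± 0.07 (edgeR adjusted p = 0.89), and Fgf23 from the Btg2 knockdown by 0.02 ± 0.08 (edgeR adjusted p = 0.87).

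**Figure D3:**
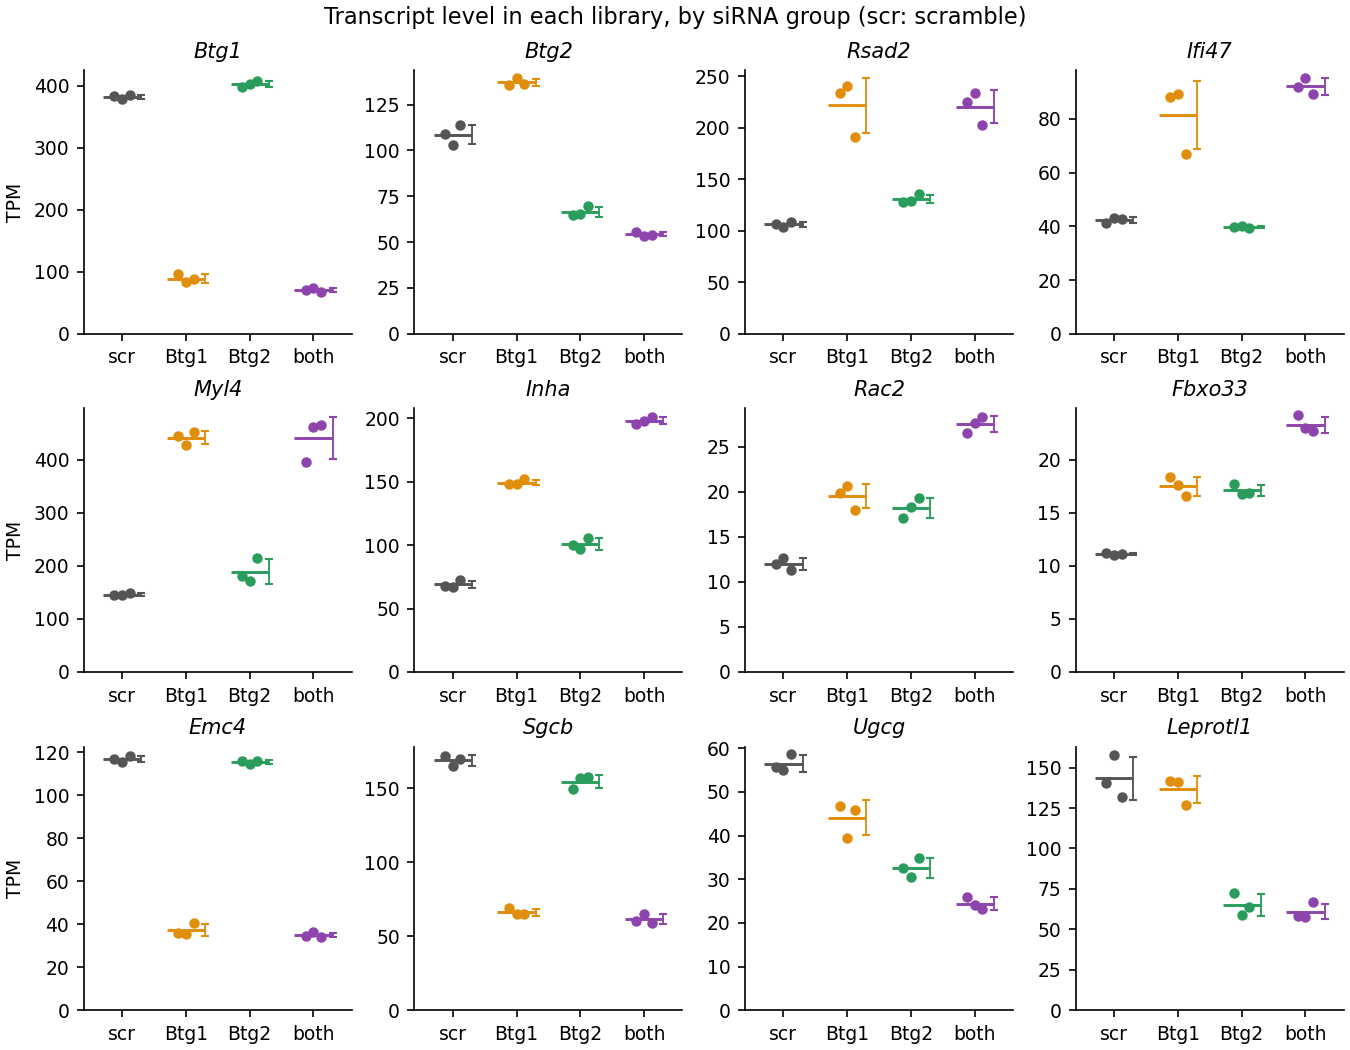
TPM (y axis, from 0) of 12 named genes in each of the 12 libraries by siRNA group: points are libraries, horizontal lines group means and bars the SD. Rsad2 and Emc4 in the double knockdown lie beside the Btg1 knockdown, Leprotl1 beside the Btg2 knockdown, and Rac2, Fbxo33 and Ugcg beyond both.

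Among the 20 largest falls by the same rule, Btg1 came first. Colec12, a scavenger receptor of the collectin family, was at 30.8, 29.2 and 30.4 TPM in scramble and 8.3, 8.1 and 7.7 TPM in the double knockdown. The 2 groups were far apart, with a fall of 1.92 ± 0.09 (edgeR adjusted p = 6.8e-13). Emc4, a subunit of the ER membrane complex that inserts membrane proteins, was at 117, 116 and 119 TPM in scramble and 34.6, 36.2 and 34.2 TPM in the double knockdown. It fell by 1.75 ± 0.06 (edgeR adjusted p = 1.1e-16). Capn6, a calpain-like protein without protease activity, was at 5.3, 4.9 and 4.5 TPM in scramble and 1.2, 1.5 and 1.5 TPM in the double knockdown. It fell by 1.82 ± 0.16 (edgeR adjusted p = 4.8e-09). Tceal1 was at 26.4, 24.4 and 22.1 TPM in scramble and 9.9, 9.2 and 9.3 TPM in the double knockdown. It fell by 1.37 ± 0.10 (edgeR adjusted p = 1.0e-10). Atp1b2, a beta subunit of the sodium pump, was at 128, 120.1 and 118 TPM in scramble and 49.5, 48.9 and 47.9 TPM in the double knockdown. It fell by 1.34 ± 0.06 (edgeR adjusted p = 4.5e-12). Leprotl1, related to a regulator of receptor traffic to the cell surface, was at 141, 158 and 132 TPM in scramble and 58.5, 57.8 and 66.6 TPM in the double knockdown. It fell by 1.25 ± 0.08 (edgeR adjusted p = 8.5e-11). Bdnf, a neurotrophin, stood at under 1 TPM in every library, 0.7, 0.8 and 0.7 in scramble and 0.3, 0.3 and 0.2 in the double knockdown, and fell by 1.43 ± 0.12 (edgeR adjusted p = 2.2e-09). Dpysl3, of cytoskeletal growth, was at 118, 117 and 124 TPM in scramble and 63.9, 54.1 and 48.3 TPM in the double knockdown. It fell by 1.12 ± 0.07 (edgeR adjusted p = 2.3e-09). Pak1ip1, a regulator of ribosome production, was at 44, 38.7 and 42.1 TPM in scramble and 19.6, 19.9 and 18.7 TPM in the double knockdown. It fell by 1.11 ± 0.08 (edgeR adjusted p = 9.1e-11). The mitochondrial carrier genes Slc25a34 and Slc25a30 fell by 1.29 ± 0.09 (edgeR adjusted p = 1.6e-10) and 1.10 ± 0.07 (edgeR adjusted p = 2.9e-10). Rab7b, a GTPase of endosomes, and Ptprr, a tyrosine phosphatase, fell from low levels, by 1.23 ± 0.13 (edgeR adjusted p = 8.1e-08) and 1.14 ± 0.13 (edgeR adjusted p = 2.2e-07). Efhd1, a calcium-binding protein of mitochondria, and Tmem171 fell by 1.17 ± 0.13 (edgeR adjusted p = 2.0e-07) and 1.16 ± 0.12 (edgeR adjusted p = 5.7e-08).

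Falls too differed in how they stood to the single knockdowns. Ugcg, which makes glucosylceramide, the first step of glycosphingolipid synthesis, was at 55.7, 55 and 58.6 TPM in scramble and 26, 24.1 and 23.1 TPM in the double knockdown. It fell by 1.22 ± 0.06 (edgeR adjusted p = 2.8e-13). The change with each siRNA alone was smaller, -0.35 ± 0.06 with Btg1 and -0.78 ± 0.06 with Btg2, and the double knockdown differed from them by -0.87 ± 0.06 (edgeR adjusted p = 8.0e-10) and -0.44 ± 0.06 (edgeR adjusted p = 3.8e-06). Prrg4, a membrane protein with a Gla domain, was at 29.2, 29.9 and 32.5 TPM in scramble and 16.6, 13.6 and 12.1 TPM in the double knockdown. It fell by 1.13 ± 0.08 (edgeR adjusted p = 1.9e-10). It was lower than scramble with Btg1 siRNA alone, at -0.53 ± 0.08 (edgeR adjusted p = 9.8e-06), and higher with Btg2 siRNA alone, at 0.72 ± 0.07 (edgeR adjusted p = 1.5e-07). The pair lay below both, with differences of -0.60 ± 0.08 (edgeR adjusted p = 1.2e-05) and -1.85 ± 0.08 (edgeR adjusted p = 7.5e-14). Emc4 and Colec12 stood near the Btg1 knockdown, with differences of -0.11 ± 0.06 (edgeR adjusted p = 0.19) and 0.05 ± 0.10 (edgeR adjusted p = 0.76). Tcaim, a mitochondrial protein, and Leprotl1 stood near the Btg2 knockdown, with differences of -0.02 ± 0.09 (edgeR adjusted p = 0.9) and -0.11 ± 0.08 (edgeR adjusted p = 0.33), while Tcaim fell by 1.17 ± 0.09 against scramble (edgeR adjusted p = 3.6e-10).

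**Figure D4:**
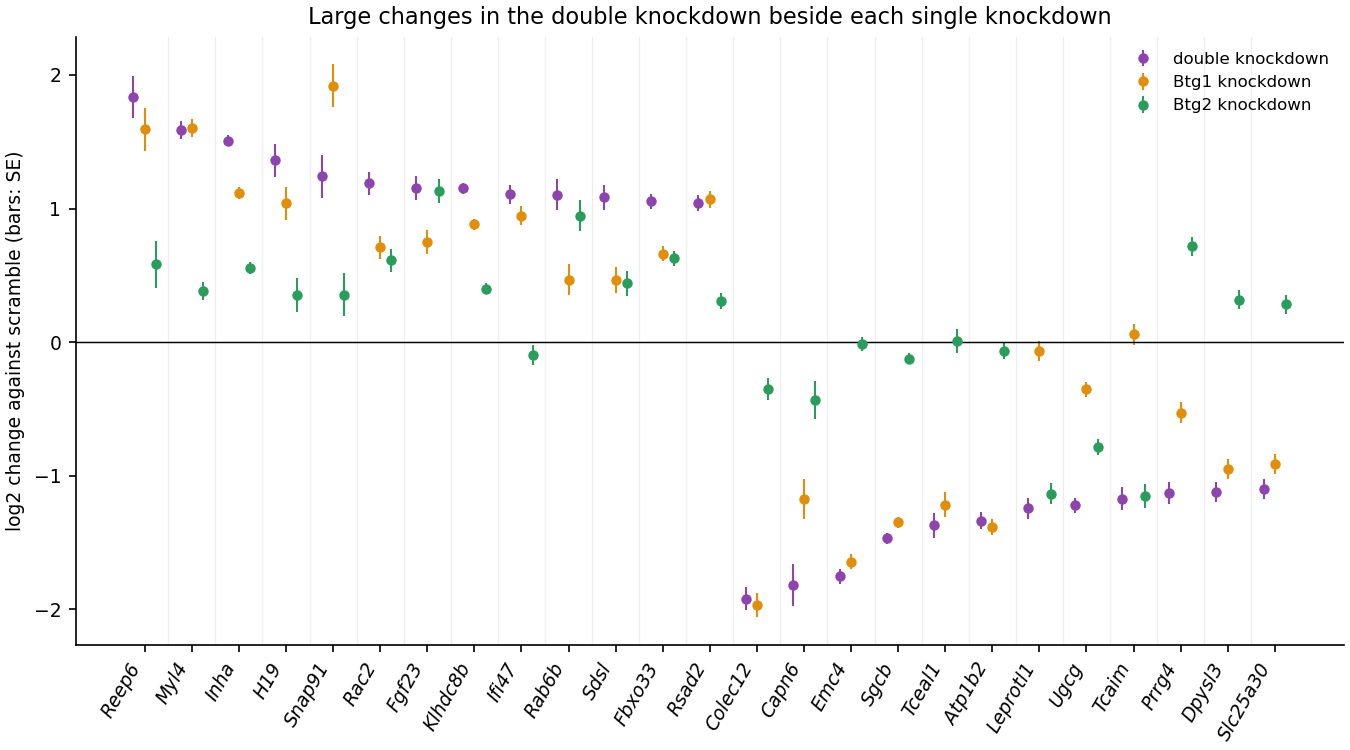
Log2 change against scramble with its SE (y axis) of 25 genes with large changes, in the double, Btg1 and Btg2 knockdowns, which share the 3 scramble libraries. The double knockdown of Rac2 at 1.19 and Ugcg at -1.22 lies beyond both single knockdowns, and that of Emc4 at -1.75 lies beside the Btg1 knockdown.

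More sarcomere genes rose than fell. Of 17 tested thick filament genes 8 rose and 3 fell, of 18 thin filament genes 8 rose and 0 fell, and of 25 Z-disc genes 8 rose and 2 fell, the last with 1 falling without scramble replicate 2. Among all genes 19.4% were higher and 19.5% lower. Median changes were 0.14, 0.19 and 0.08. Of the Z-disc genes 0 were higher and 15 lower than in the Btg1 knockdown (10.3% and 11.9% of all genes). Compared with the Btg2 knockdown, 3 were higher and 5 lower (15.2% and 17.0%). Thick filament genes gave 5 higher and 2 lower against the Btg1 knockdown, and 5 and 6 against the Btg2 knockdown. For thin filament genes these were 2 and 2, and 3 and 0. Among the 20 most abundant genes of scramble cultures, 3 rose, 2 fell and 15 were not called. Myh6, the fast adult cardiac myosin heavy chain, was at 2637, 2613 and 2736 TPM in scramble and 3413, 3304 and 3368 TPM in the double knockdown. It rose by 0.32 ± 0.05 (edgeR adjusted p = 5.4e-06). It was higher than in either single knockdown, by 0.24 ± 0.05 (edgeR adjusted p = 5.9e-04) and 0.29 ± 0.05 (edgeR adjusted p = 2.9e-05). Troponin C (Tnnc1) was at 4763, 4807 and 4982 TPM in scramble and 5698, 5756 and 5649 TPM in the double knockdown. It rose by 0.22 ± 0.06 (edgeR adjusted p = 0.0038). Tnnt2 at 0.16 ± 0.07 (edgeR adjusted p = 0.096; edgeR adjusted p = 0.013 without Btg2 knockdown replicate 2), Myl2 at 0.07 ± 0.09 (edgeR adjusted p = 0.57) and cardiac actin (Actc1) at 0.02 ± 0.07 (edgeR adjusted p = 0.87) did not pass. Actc1 was lower with the pair than with Btg1 siRNA alone, with a difference of -0.37 ± 0.07 (edgeR adjusted p = 0.0013). Its difference from the Btg2 knockdown did not pass with all libraries (edgeR adjusted p = 0.07). The hormone genes Nppa and Nppb, raised in stretched and failing hearts, stood at 0.06 ± 0.08 (edgeR adjusted p = 0.59) and -0.02 ± 0.09 (edgeR adjusted p = 0.87), and neither passed. Both were lower than with Btg2 siRNA alone, with differences of -0.30 ± 0.08 (edgeR adjusted p = 0.015) and -0.32 ± 0.09 (edgeR adjusted p = 0.012). These calls ended without double knockdown replicate 2 (edgeR adjusted p = 0.056 and 0.051), and for Nppa also without replicate 1 (edgeR adjusted p = 0.052). Against the Btg1 knockdown neither passed with all libraries (edgeR adjusted p = 0.075 and 0.086), but both did without Btg1 knockdown replicate 1.

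Single sarcomere genes changed by more than these medians. Myl4, the atrial and fetal essential light chain, was at 144, 145 and 148 TPM in scramble and 396, 462 and 465 TPM in the double knockdown. It rose by 1.59 ± 0.07 (edgeR adjusted p = 1.1e-11), the largest change among the 6 thick filament genes with the smallest p. Myl7, the atrial regulatory light chain, was at 105, 121 and 103 TPM in scramble and 179, 201 and 233 TPM in the double knockdown. It rose by 0.89 ± 0.08 (edgeR adjusted p = 1.3e-07). The pair exceeded the Btg1 knockdown by 0.47 ± 0.08 (edgeR adjusted p = 3.6e-04) and the Btg2 knockdown by 0.51 ± 0.08 (edgeR adjusted p = 1.1e-04). Mybph, related to myosin-binding protein C, was at 18.7, 17.1 and 18.3 TPM in scramble and 30.5, 30.9 and 30.0 TPM in the double knockdown. It rose by 0.74 ± 0.08 (edgeR adjusted p = 8.6e-08) and also exceeded both, by 0.61 ± 0.08 (edgeR adjusted p = 4.9e-06) and 0.52 ± 0.08 (edgeR adjusted p = 1.6e-05). The slow tropomyosin gene Tpm3 was at 66.4, 69.8 and 66.5 TPM in scramble and 109, 108 and 105 TPM in the double knockdown. It rose by 0.66 ± 0.04 (edgeR adjusted p = 6.4e-11) and exceeded both by 0.46 ± 0.04 (edgeR adjusted p = 1.3e-07) and 0.41 ± 0.04 (edgeR adjusted p = 1.2e-07). Tnni1, the slow and fetal troponin I, was at 2056, 2017 and 2072 TPM in scramble and 2489.6, 2425 and 2419 TPM in the double knockdown. It rose by 0.24 ± 0.04 (edgeR adjusted p = 3.3e-05). Nebl, the Z-disc protein nebulette, rose by 0.57 ± 0.07 (edgeR adjusted p = 3.5e-06), and Synpo2l, of the Z-disc, by 0.47 ± 0.05 (edgeR adjusted p = 3.1e-08). The intermediate filament gene Des was at 2002, 2004 and 2035 TPM in scramble and 2574, 2590.4 and 2555 TPM in the double knockdown. It rose by 0.34 ± 0.05 (edgeR adjusted p = 3.0e-06). Pdlim3, an actinin-binding protein, was at 311, 279.5 and 281 TPM in scramble and 242, 223 and 227 TPM in the double knockdown. It fell by 0.35 ± 0.05 (edgeR adjusted p = 5.5e-06). Of 14 atrial genes tested 2 rose, both of them light chains, and 2 fell, with a median of -0.10. The list as a whole was called less often than all genes, at 28.6% against 38.9%.

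Genes of the muscle cell membrane changed in both directions, with large falls of single subunits. Of 21 tested members of the dystrophin-glycoprotein complex, which ties the cytoskeleton to the matrix, 6 rose and 4 fell (19.4% and 19.5% of all genes). Sgcb, beta-sarcoglycan, was at 172, 165 and 169.6 TPM in scramble and 60.2, 65.3 and 59.2 TPM in the double knockdown, with no overlap. It fell by 1.47 ± 0.04 (edgeR adjusted p = 1.6e-17). Sspn, sarcospan, was at 245, 235 and 240.3 TPM in scramble and 143, 152 and 146 TPM in the double knockdown. It fell by 0.72 ± 0.04 (edgeR adjusted p = 2.9e-12). Dysf, dysferlin, of membrane repair, rose by 0.25 ± 0.04 (edgeR adjusted p = 1.1e-05). Of 19 sodium pump and exchanger genes 3 rose and 8 fell, with Atp1b2 first among them. Atp1b3, another pump beta subunit, fell by 0.29 ± 0.04 (edgeR adjusted p = 9.0e-06), and the bicarbonate cotransporter gene Slc4a4 rose by 0.72 ± 0.09 (edgeR adjusted p = 7.0e-07).

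Of 35 cardiac ion channel genes 8 rose and 11 fell (19.4% and 19.5% of all genes), with 5 rising without scramble replicate 1 and also without double knockdown replicate 3. Scn4b, a beta subunit of sodium channels, was at 14.8, 13.6 and 13.7 TPM in scramble and 10.1, 9.4 and 9.1 TPM in the double knockdown. It fell by 0.57 ± 0.07 (edgeR adjusted p = 4.1e-07). It rose with Btg2 siRNA alone, by 0.49 ± 0.06 (edgeR adjusted p = 3.7e-06), and was lower with Btg1 siRNA alone, at -1.23 ± 0.07 (edgeR adjusted p = 5.9e-12). The KATP channel subunit gene Abcc9 fell by 0.52 ± 0.04 (edgeR adjusted p = 3.0e-10). Cacna1h, a T-type calcium channel, was at 22.5, 22.9 and 23.9 TPM in scramble and 31.8, 33.3 and 37.3 TPM in the double knockdown. It rose by 0.55 ± 0.05 (edgeR adjusted p = 1.4e-08), and the inward rectifier gene Kcnj12 rose by 0.60 ± 0.07 (edgeR adjusted p = 3.4e-07). In the sarcoplasmic reticulum calcium list 7 of 29 rose and 9 fell. Pln, phospholamban, the brake on the calcium pump, was at 1091, 1035 and 1103 TPM in scramble and 867, 885 and 863 TPM in the double knockdown. It fell by 0.32 ± 0.04 (edgeR adjusted p = 5.9e-07). Casq1, the skeletal calsequestrin, was at 129.7, 133 and 146 TPM in scramble and 187, 206 and 200.3 TPM in the double knockdown. It rose by 0.53 ± 0.06 (edgeR adjusted p = 4.9e-07), and Calm2, calmodulin, fell by 0.37 ± 0.04 (edgeR adjusted p = 1.8e-07). Among intercalated disc genes 7 of 18 rose and 5 fell. T-cadherin (Cdh13) was at 88.4, 83.4 and 81 TPM in scramble and 47.1, 47.2 and 46.6 TPM in the double knockdown. It fell by 0.86 ± 0.04 (edgeR adjusted p = 4.3e-13), while Tjp1 and the desmosomal gene Pkp2 rose by 0.43 ± 0.04 (edgeR adjusted p = 3.7e-09) and 0.32 ± 0.04 (edgeR adjusted p = 7.9e-07). Of 33 cardiac transcription factor genes 5 rose and 7 fell. Myocd, the myocardin coactivator of serum response factor, was at 16.9, 15.9 and 18.1 TPM in scramble and 29.8, 29.9 and 28.2 TPM in the double knockdown. It rose by 0.78 ± 0.06 (edgeR adjusted p = 3.2e-10), and Hopx fell by 0.48 ± 0.06 (edgeR adjusted p = 1.6e-06).

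In cyclic AMP and Gq signalling, 10 of 43 genes rose and 9 fell, near the 19.4% higher and 19.5% lower of all genes, so the values below are about single genes. Prkar2a, a regulatory subunit of protein kinase A, was at 55.8, 55.2 and 57.2 TPM in scramble and 31.5, 30.4 and 28.8 TPM in the double knockdown. It fell by 0.90 ± 0.05 (edgeR adjusted p = 9.4e-12). It was lower than in either single knockdown, with differences of -0.77 ± 0.05 from Btg1 (edgeR adjusted p = 1.4e-09) and -0.53 ± 0.06 from Btg2 (edgeR adjusted p = 1.0e-07). Gnas, the stimulatory G protein alpha subunit, was at 133, 136 and 128 TPM in scramble and 77.4, 89.6 and 97.3 TPM in the double knockdown. It fell by 0.60 ± 0.08 (edgeR adjusted p = 2.5e-05). Double knockdown replicate 1 was the lowest and replicate 3 the highest of the 3, and none overlapped with scramble. With single siRNAs Gnas stood at -0.02 ± 0.08 with Btg1 (edgeR adjusted p = 0.84) and did not pass against scramble with Btg2 (edgeR adjusted p = 0.99), and the double knockdown differed from them by -0.57 ± 0.08 (edgeR adjusted p = 1.0e-04) and -0.60 ± 0.08 (edgeR adjusted p = 3.5e-05). Gnaq, the Gq alpha subunit, was at 22.2, 22 and 22.6 TPM in scramble and 14.6, 15.6 and 14.3 TPM in the double knockdown. It fell by 0.60 ± 0.08 (edgeR adjusted p = 4.5e-06), although it rose with Btg2 siRNA alone, by 0.42 ± 0.08 (edgeR adjusted p = 2.9e-04). Grk5, a kinase that desensitises receptors, was at 89, 82.4 and 85.6 TPM in scramble and 131, 132 and 124 TPM in the double knockdown. It rose by 0.58 ± 0.04 (edgeR adjusted p = 3.9e-10). The phospholipase gene Plcb4 rose by 0.37 ± 0.04 (edgeR adjusted p = 3.5e-08) and the phosphodiesterase gene Pde4d by 0.41 ± 0.06 (edgeR adjusted p = 1.5e-05).

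Growth factor genes were mixed, against 19.4% higher and 19.5% lower among all genes. Of 23 genes of the IGF and insulin axis 6 rose and 9 fell. Igf2bp1, which binds Igf2 mRNA, was at 7.7, 6.8 and 7.7 TPM in scramble and 14.7, 12.8 and 12.5 TPM in the double knockdown. It rose by 0.84 ± 0.10 (edgeR adjusted p = 2.9e-07). The binding protein gene Igfbp6 was at 47, 46.4 and 41.4 TPM in scramble and 26.1, 22.3 and 30.7 TPM in the double knockdown. It fell by 0.78 ± 0.11 (edgeR adjusted p = 7.1e-06), and the secreted protein gene Stc1 was at 94.5, 108 and 121 TPM in scramble and 53.3, 60.7 and 54.8 TPM in the double knockdown. It fell by 0.95 ± 0.07 (edgeR adjusted p = 9.0e-09). Of 50 TGF-beta, activin and BMP genes 9 rose and 13 fell, and these shares, like those of the next list, are near those of all genes. Compared with the Btg1 knockdown, 4 of the 50 were higher and 19 lower (10.3% and 11.9% of all genes). Compared with the Btg2 knockdown, 7 were higher and 19 lower (15.2% and 17.0%). Beside Inha, Bmp7 was at 22.7, 26.1 and 26.4 TPM in scramble and 36.8, 36.4 and 39.7 TPM in the double knockdown. It rose by 0.57 ± 0.06 (edgeR adjusted p = 6.9e-08), and the latent TGF-beta binding protein genes Ltbp2 and Ltbp3 fell by 0.74 ± 0.05 (edgeR adjusted p = 4.0e-10) and 0.39 ± 0.04 (edgeR adjusted p = 1.8e-07). Of 44 neurotrophin and receptor tyrosine kinase genes 7 rose and 9 fell. Fgfr1 was at 74.9, 77.8 and 77.4 TPM in scramble and 48.5, 46 and 53 TPM in the double knockdown. It fell by 0.65 ± 0.05 (edgeR adjusted p = 8.3e-10). Fgfr3 was at 4.1, 4.4 and 4.0 TPM in scramble and 8.4, 7.3 and 9.2 TPM in the double knockdown. It rose by 0.99 ± 0.10 (edgeR adjusted p = 5.1e-08), and Hgf rose by 0.67 ± 0.09 (edgeR adjusted p = 1.3e-06).

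Immediate early and ERK feedback genes split. Of 37 tested 8 rose and 12 fell (19.4% and 19.5% of all genes), the target Btg2 among the latter. Klf15, a regulator of cardiac growth and metabolism, was at 25.1, 27.8 and 26.7 TPM in scramble and 14.3, 15.5 and 14.8 TPM in the double knockdown. It fell by 0.84 ± 0.07 (edgeR adjusted p = 1.7e-09), and Klf4 was at 83.2, 75.3 and 80.2 TPM in scramble and 48.7, 49.4 and 49.1 TPM in the double knockdown. It fell by 0.71 ± 0.05 (edgeR adjusted p = 3.5e-11). Nr4a2 fell from a low level by 0.94 ± 0.17 (edgeR adjusted p = 1.3e-04). Atf3, a stress-induced factor, was at 37.4, 35.7 and 35.4 TPM in scramble and 55.7, 57.9 and 56 TPM in the double knockdown. It rose by 0.63 ± 0.07 (edgeR adjusted p = 1.4e-07), and Spry4, an ERK feedback inhibitor, rose by 0.54 ± 0.05 (edgeR adjusted p = 3.6e-09). The pair differed from either siRNA alone: 22 of the 37 were lower than in the Btg1 knockdown and 1 higher (11.9% and 10.3% of all genes), and 20 were lower than in the Btg2 knockdown and 1 higher (17.0% and 15.2%). The target Btg2 is among the lower genes in both comparisons. Leaving out 1 library at a time left 17 to 22 and 14 to 20 lower. The 3 comparisons with scramble, which share its libraries, gave medians of 0.32 with Btg1 siRNA, 0.18 with Btg2 siRNA and -0.12 with both. Egr1, chosen after its values were seen, was at 59.5, 59 and 56.4 TPM in scramble and 52, 52.4 and 57.5 TPM in the double knockdown, a change of -0.12 ± 0.06 that did not pass (edgeR adjusted p = 0.11). It passed without double knockdown replicate 3 (edgeR adjusted p = 0.021). It was lower with the pair than with either siRNA alone, with differences of -0.62 ± 0.06 from Btg1 (edgeR adjusted p = 8.1e-08) and -0.40 ± 0.06 from Btg2 (edgeR adjusted p = 1.2e-05).

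Genes of the extracellular matrix fell together, and so did fibroblast and endothelial markers. Among 59 tested fibroblast and matrix genes, 3 rose and 39 fell, and their median was -0.245, against 19.4% higher, 19.5% lower and -0.0061 among all genes. In bulk RNA, fewer cells of a type and less RNA per cell cannot be told apart. The 12 fibroblast markers summed to 6956 to 7126 TPM in scramble and 5550 to 6285 TPM in the double knockdown, with 10 of 12 lower and 0 higher. The 12 endothelial markers summed to 190.3 to 199.1 TPM and 146 to 165 TPM, with 9 lower and 1 higher. The 11 cardiomyocyte markers in the table summed to 33850.0 to 34440.0 TPM and 35730.0 to 36600.0 TPM, with 2 higher and 3 lower, and 1 higher when any of scramble replicates 1 and 2 or double knockdown replicates 1 and 2 was left out. The 15 macrophage and leukocyte markers summed to 94.0 to 115 TPM and 79.0 to 85.3 TPM, with 0 higher and 4 lower, and 2 lower without scramble replicate 1 or double knockdown replicate 1. Other marker sums were higher: the 12 smooth muscle and pericyte markers as given above, with 4 higher and 3 lower (2 higher without double knockdown replicate 2), and the 6 epicardial and mesothelial markers at 218.5 to 224.8 TPM in scramble and 286.2 to 311.3 TPM in the double knockdown, with 2 higher and 1 lower (2 lower without double knockdown replicate 2). The 5 erythroid markers in the table, 3 of them tested, summed to at most 5.5 TPM in any of the 6 libraries. The part of cell composition in the fall of matrix genes was not tested.

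Elastin (Eln) was at 134, 133 and 125 TPM in scramble and 92.1, 83.8 and 93.2 TPM in the double knockdown. It fell by 0.55 ± 0.05 (edgeR adjusted p = 7.6e-08). The proteoglycan gene Bgn was at 1357, 1300.0 and 1305 TPM in scramble and 1039, 966 and 957 TPM in the double knockdown. It fell by 0.43 ± 0.05 (edgeR adjusted p = 1.7e-07), and the matrix calcification inhibitor gene Mgp, among the 20 most abundant genes, was at 2597, 2610.2 and 2456 TPM in scramble and 1833, 1691 and 1822 TPM in the double knockdown. It fell by 0.53 ± 0.05 (edgeR adjusted p = 1.8e-07). Mgp was lower than in either single knockdown, with differences of -0.26 ± 0.05 (edgeR adjusted p = 0.0015) and -0.36 ± 0.06 (edgeR adjusted p = 3.1e-05). The collagen gene Col6a2 fell by 0.47 ± 0.05 (edgeR adjusted p = 9.6e-07) and the crosslinking enzyme gene Loxl3 by 0.41 ± 0.05 (edgeR adjusted p = 1.4e-06). In all 5 the double knockdown libraries lay below the scramble libraries. Lamc1, the laminin gamma chain of basement membranes, went up instead: it was at 336, 335 and 342 TPM in scramble and 526, 504 and 507 TPM in the double knockdown. It rose by 0.59 ± 0.04 (edgeR adjusted p = 4.5e-11). Of 42 protease and inhibitor genes 7 rose and 18 fell (19.4% and 19.5% of all genes). The gelatinase gene Mmp2 among them was at 886, 889 and 881 TPM in scramble and 709.6, 640.3 and 660.4 TPM in the double knockdown. It fell by 0.41 ± 0.04 (edgeR adjusted p = 3.3e-08). Of the markers, Kdr, the VEGF receptor of endothelium, was at 13.8, 14.1 and 14 TPM in scramble and 7.2, 8.0 and 6.4 TPM in the double knockdown. It fell by 0.97 ± 0.07 (edgeR adjusted p = 3.2e-10), with differences of -0.56 ± 0.07 from the Btg1 knockdown (edgeR adjusted p = 6.6e-06) and from the Btg2 knockdown of -0.49 ± 0.07 (edgeR adjusted p = 1.5e-05). The fibroblast markers Pdgfra and Lum fell by 0.20 ± 0.05 (edgeR adjusted p = 0.001) and 0.40 ± 0.05 (edgeR adjusted p = 2.0e-06).

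Genes of the endoplasmic reticulum were lower on balance and heat shock and chaperone genes higher. Genes of the unfolded protein response and the integrated stress response were mostly lower: 5 of 46 rose and 24 fell, and their median was -0.20, against 19.4% higher and 19.5% lower among all genes. Compared with the Btg1 knockdown, 6 of the 46 were higher and 7 lower (10.3% and 11.9% of all genes). Compared with the Btg2 knockdown, 2 were higher and 18 lower (15.2% and 17.0%). Slc7a5, a leucine transporter induced by ATF4, was at 124, 125 and 119 TPM in scramble and 71.5, 75.2 and 76.8 TPM in the double knockdown. It fell by 0.73 ± 0.05 (edgeR adjusted p = 3.2e-11), and it was below both single knockdowns, with differences of -0.32 ± 0.05 (edgeR adjusted p = 2.9e-05) and -0.42 ± 0.05 (edgeR adjusted p = 2.5e-07). Ddit3, the stress factor CHOP, was at 149, 159 and 145 TPM in scramble and 111, 116 and 105 TPM in the double knockdown. It fell by 0.46 ± 0.05 (edgeR adjusted p = 1.8e-07), and Atf5 fell by 0.34 ± 0.04 (edgeR adjusted p = 7.6e-08). Dnajb9, an ER cochaperone, was at 44.4, 40.2 and 43.9 TPM in scramble and 77.3, 77.9 and 66.5 TPM in the double knockdown. It rose by 0.78 ± 0.06 (edgeR adjusted p = 1.2e-09). Of 36 genes of the ER membrane complex and translocon 7 rose and 13 fell. Ssr2, of the translocon-associated complex, was at 438, 426 and 433 TPM in scramble and 260.1, 274 and 275 TPM in the double knockdown. It fell by 0.69 ± 0.04 (edgeR adjusted p = 2.3e-12), and Rpn1, of oligosaccharyl transferase, was at 549, 519.7 and 541 TPM in scramble and 368, 362 and 341 TPM in the double knockdown. It fell by 0.60 ± 0.04 (edgeR adjusted p = 1.1e-11). Emc1, a partner of Emc4 in its complex, was at 27.8, 27 and 26.4 TPM in scramble and 43.8, 41.1 and 41.5 TPM in the double knockdown. It rose by 0.63 ± 0.04 (edgeR adjusted p = 2.1e-11). Among 37 heat shock and chaperone genes, 18 rose and 2 fell, and their median was 0.14. The small heat shock protein gene Hspb6, of muscle, was the larger fall: it was at 424, 449.6 and 439 TPM in scramble and 229.9, 246 and 263 TPM in the double knockdown. It fell by 0.84 ± 0.05 (edgeR adjusted p = 6.6e-12). Bag1 rose by 0.50 ± 0.04 (edgeR adjusted p = 3.7e-09) and the mitochondrial chaperonin gene Hspd1 by 0.30 ± 0.04 (edgeR adjusted p = 5.7e-06). Of 46 proteasome subunit genes 17 rose and 3 fell, the latter 1 without any scramble library or double knockdown replicate 1 or 2. The rises include Psmb8 and Psmb10, already counted among the MHC class I genes.

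Lipid and sugar metabolism changed gene by gene. Among 41 cholesterol and fatty acid synthesis genes, 19 rose and 5 fell, against 19.4% and 19.5% of all genes, and their median was 0.09. Acaca, acetyl-CoA carboxylase, was at 22.2, 21.8 and 23.7 TPM in scramble and 31.5, 31.2 and 31.1 TPM in the double knockdown. It rose by 0.46 ± 0.04 (edgeR adjusted p = 1.4e-08). Acly, which supplies cytosolic acetyl-CoA, was at 59.5, 57.2 and 58.7 TPM in scramble and 35.6, 33.9 and 35.8 TPM in the double knockdown. It fell by 0.75 ± 0.04 (edgeR adjusted p = 8.0e-13). Its change was -0.08 ± 0.04 with Btg1 siRNA alone (edgeR adjusted p = 0.095) and -0.80 ± 0.04 with Btg2 siRNA alone (edgeR adjusted p = 4.2e-12). Of 57 fatty acid oxidation and lipid storage genes 11 rose and 18 fell. Eci2, a fatty acid oxidation enzyme, was at 76.5, 76.9 and 79.8 TPM in scramble and 128, 145 and 133 TPM in the double knockdown. It rose by 0.79 ± 0.05 (edgeR adjusted p = 5.1e-11) and exceeded both single knockdowns, by 0.27 ± 0.05 (edgeR adjusted p = 4.1e-04) and 0.38 ± 0.05 (edgeR adjusted p = 4.3e-06). The uncoupling protein gene Ucp2 was at 422, 419 and 411 TPM in scramble and 616, 583 and 631 TPM in the double knockdown. It rose by 0.54 ± 0.04 (edgeR adjusted p = 2.0e-10). The fatty acid transporter gene Cd36 was at 198, 194 and 204 TPM in scramble and 149.9, 154 and 136 TPM in the double knockdown. It fell by 0.45 ± 0.04 (edgeR adjusted p = 1.6e-08), and Pdk2, a brake on pyruvate dehydrogenase, fell by 0.58 ± 0.05 (edgeR adjusted p = 1.1e-09). Of 40 glycolysis genes 9 rose and 10 fell: Tkt, transketolase, was at 267, 275 and 259.9 TPM in scramble and 432, 417 and 433 TPM in the double knockdown. It rose by 0.66 ± 0.04 (edgeR adjusted p = 3.2e-12), and Pfkp, a phosphofructokinase, was at 295, 303 and 296 TPM in scramble and 457, 464 and 464 TPM in the double knockdown. It rose by 0.62 ± 0.04 (edgeR adjusted p = 1.2e-11). In the TCA cycle, 7 of 24 rose and 6 fell, with Dld at -0.50 ± 0.04 (edgeR adjusted p = 4.8e-10) and Mdh1 at -0.50 ± 0.04 (edgeR adjusted p = 1.0e-09). Of 43 NRF2 and antioxidant genes 7 rose and 18 fell, although Gstm1 and Hmox2 rose by 0.72 ± 0.06 (edgeR adjusted p = 2.5e-09) and 0.71 ± 0.05 (edgeR adjusted p = 4.1e-10).

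Cytosolic ribosomal protein genes were mostly not called. Of 79 cytosolic ribosomal protein genes 2 rose and 4 fell, 7.59% against 38.9% of all genes, with a median of -0.0083. Without single libraries 0 to 7 rose and 1 to 4 fell, the 7 without double knockdown replicate 1. Most of these are abundant, well-counted genes. Their summed level, with the untested Rpl3l included, was 46700.0 to 48190.0 TPM in scramble and 46180.0 to 48150.0 TPM in the double knockdown, which overlap. Of 71 mitochondrial ribosomal protein genes 17 rose and 8 fell (19.4% and 19.5% of all genes), and 35.2% were called in either direction. Of 91 oxidative phosphorylation subunit genes 6 rose and 15 fell, and these counts moved with single libraries: 31 fell without double knockdown replicate 3 and 9 without scramble replicate 2 or double knockdown replicate 1, while 3 rose without scramble replicate 1 or 2 and 2 without double knockdown replicate 2. Of 28 clathrin and endocytosis genes 3 rose and 8 fell, and the 39.3% called is near the 38.9% of all genes. The membrane-bending protein gene Bin1 fell from 26.6, 30.2 and 27.8 TPM to 14.6, 14.5 and 14.5 TPM, by 0.97 ± 0.06 (edgeR adjusted p = 5.7e-11). The clathrin heavy chain gene Cltc fell by 0.55 ± 0.04 (edgeR adjusted p = 4.0e-10).

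**Figure D5:**
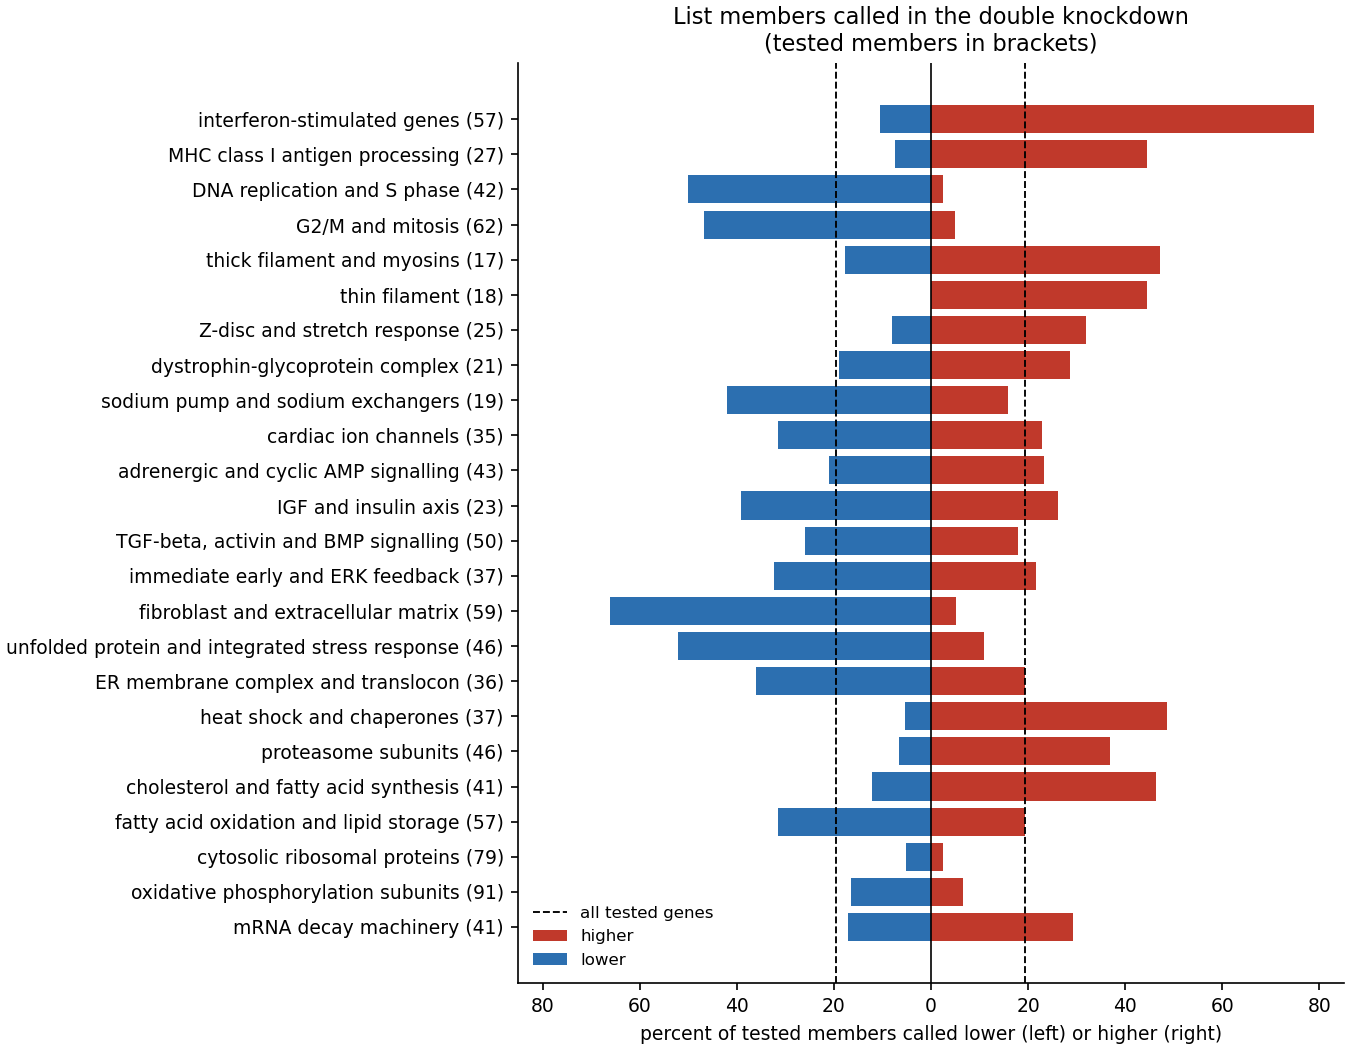
Percent of the tested members of 24 gene lists called lower (bars to the left) or higher (bars to the right) in the double knockdown against scramble, with dashed lines at the shares of all tested genes, 19.5% and 19.4%. Interferon-stimulated genes extend farthest to the right and matrix genes farthest to the left.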

How the data were processed

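RNA was amplified (Ovation RNA-Seq v2) and made into Nextera XT libraries for paired-end sequencing, per the labels' protocols. The authors deposited raw read counts per gene and TPM values rounded to 0.1. STAR, featureCounts, cutadapt, Trim Galore, FastQC and the build rn5 are listed in the submitters' processing notes, without role or order. The strand setting and counting options are not given there.

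Here the deposited counts of all 12 libraries were fitted with edgeR 4.0.16 in R 4.3.3 (TMM scaling, filterByExpr, robust quasi-likelihood F test, 1 mean per group), which removed 4884 of 17419 genes. Adjustment was by Benjamini-Hochberg over all tested genes. SE is the log2 change divided by the square root of F. Deposited TPM values are printed as levels and were not tested in the results given. Counts were simulated for 12442 genes, with only a small set of them changed. The test called 63 of 67 changed genes at 2-fold, 58 of 71 at 1.5-fold and 25 of 62 at 1.2-fold. Of its 161 calls 15 were false, a larger share than the threshold of 0.05. Far fewer genes changed there than the 4873 called in the data, so these shares need not hold for the data.

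Genes named are the targets, the 20 largest rises and falls (from 5 CPM, groups not overlapping), the 20 most abundant, up to 6 members of each list with the smallest p (any member of lists of at most 25) and cell type markers. The members and lists were chosen with earlier results of these data known. Some genes that the rule names are not reported here. Promoters came from RefSeq (GRCr8), matched by symbol for 12390 of 12535 genes. Alternatives were DESeq2 1.42.0, limma 3.58.1, other scalings and filters, the 2 groups alone, a replicate block and leaving out each library.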

Additional observations from a re-analysis of the deposited data

How the results depend on the processing

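The count of genes called between the double knockdown and scramble ranged from 4056, without scramble replicate 2, to 4877 when 1 library was left out, beside 4873 with all. DESeq2 called 4806, scaling by library size alone 4794, no filter on low counts 4766 and the 2 groups fitted alone 4536, and limma on log2 TPM called 4251 to 4488. Under these settings the counts of the 5 group comparisons stayed within 1.5 times their values with all libraries. Scaling by library size alone moved the share of upward calls from 47.3% to 58.2% against the Btg2 knockdown.

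The libraries carry the same replicate numbers in each group. The deviations of same-numbered scramble and double knockdown libraries correlated at 0.148, -0.219 and -0.252 across genes. Those of differently numbered libraries correlated at -0.234 to 0.397. With 3 libraries a group, these values cannot show whether equal numbers mark a shared culture or batch. With the replicate number as a block 4758 genes were called, 2366 higher and 2392 lower.

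With 3 libraries a group, changes near 1.2-fold were often missed in simulated data. Far fewer genes changed in that simulation than were called here, so it does not give the sensitivity in these data. Most 2-fold changes in the data lay in genes under 5 CPM. Over all settings and lists, 541 list counts moved by over 1.5 times and 6893 did not. Those given beside the lists come from leaving out 1 library. Moves of list counts under the other settings are not given.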
